A study of Bos taurus with 32 samples.

Results

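Skeletal muscle of calves that began as in vitro produced embryos was compared between the sexes, 4 bull calves against 4 heifer calves, which makes 8 of the 32 libraries of the series. The members were the muscle libraries labelled IVP male and IVP female, and the genes described are the autosomal ones, above all those of fibre type and of metabolism. Of 29634 autosomal genes listed, 14450 had enough counts to be tested. The 21 lists of fibre and metabolic genes named 458 members, of which 442 were tested. Of the other 16, 10 are listed at 0 in every muscle library (MYOZ2, PLN, CASQ1, HRC, PPP1R3D, TPI1, GPD1, COX8B, ECHS1 and SIRT3). Enzymes that every cell uses, such as TPI1, are among these, so the 0 is no measure of expression. PAX3, PNPLA3 and THRSP were below the count filter, and the other 3, among them PAX7 and STARD4, are not analysed here.

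All calves were dairy calves (Bos taurus), and their dams were heifers. IVP calves came from the transfer of 1 frozen-thawed embryo made in vitro, and the comparison calves (AI) came from timed insemination with frozen-thawed semen. The muscle of each calf was sampled by percutaneous punch biopsy, at 117 to 143 days of age in IVP bulls, 118 to 143 in IVP heifers, 114 to 136 in AI bulls and 121 to 142 in AI heifers. A punch takes a small piece of tissue with its vessels, nerves and connective tissue, and in bulk RNA fewer cells of a type and less RNA per cell cannot be told apart.

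Skeletal muscle mixes slow fibres, which carry the myosin heavy chain MYH7 and rely on mitochondria, with fast fibres, which carry MYH2, MYH1 or MYH4 and lean more on glycogen. A resting fibre chooses between glucose and fatty acids mainly at pyruvate dehydrogenase, which the kinase PDK4 switches off, and at the carnitine shuttle, where CPT1 admits long-chain fatty acids into mitochondria. Fasting, circulating fatty acids and the transcription factors PPARD and FOXO1 are known to raise PDK4, UCP3 and ANGPTL4 in muscle.

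Levels below are CPM, counts per 1e6 counts after scaling of library sizes. They are not divided by gene length, so the level of 1 gene is compared between libraries, not with that of another gene. Sums over several genes, and shares of such sums, are also compared between libraries only. Long and abundant genes weigh most in them. Differences are bulls minus heifers on the log2 scale. Their standard error is the one implied by the F value of edgeR's quasi-likelihood test, so it is no separate measure of spread. A gene is called where the Benjamini-Hochberg adjusted p of that test is under 0.05. Total counts ran, in units of 1e6, from 35.0 to 39.3 in the 8 IVP muscle libraries. The labelled sexes were borne out by XIST, the RNA of the inactive X chromosome, at 0 to 1.55 CPM in IVP bulls and 151 to 246 CPM in IVP heifers. IVP bull 4 held 14.3% mitochondrial counts, against 3.14 to 5.51% in the other 7. IVP bull 1 and AI bull 1 deviated from their own groups together, with a correlation of 0.89 across 11879 genes. Among counts from 2 to below 30, even values made up 58.3 to 58.8% in IVP bulls 2 to 4 and 58.6% in AI bull 1, but 52.5% in IVP bull 1, 51.0 to 52.1% in the other AI bulls and 56.7 to 57.4% in IVP heifers. No label names a step that would make libraries differ in this way, and its part in the results was not tested. AI heifer 2 lay closer to the mean of her group than counting noise allows, at 0.0273 times that noise against 2.42 to 8.78 times in the other 15 muscle libraries. That library entered the fits, and so the estimate of spread behind every adjusted p. It is left out of the AI heifer means, which have n = 3.

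Across the autosomes 1771 of 14450 genes were called, which is 12.3%. They divided into 986 higher in bulls (6.82%) and 785 lower in bulls (5.43%), with 308 of the former and 166 of the latter past 2-fold. The median difference over all tested autosomal genes was 0.04, so the scale was centred close to 0. The 22 list members higher in bulls made up 4.98% of the 442 tested, below the share over all genes, whereas the 59 lower in bulls made up 13.3%, above it. Metabolic lists carried most of this, with 46 of 299 members lower (15.4%) and 19 higher (6.35%). Fibre lists had 13 of 143 lower (9.09%) and 3 higher (2.10%). Lists and members were chosen with earlier results of these data known, so list shares above those over all genes are no separate support. The median genomic span was 15.7 kb for genes higher in bulls, 29.1 kb for genes lower in bulls and 24.6 kb for all tested genes, and the part of gene length in these counts was not tested. Single libraries moved the count of calls: it was 842, 603 and 507 without IVP heifer 1, 2 or 3, 562 and 537 without IVP bull 2 or 3, 1092 without AI heifer 2, and 2939 without IVP bull 1. All 1771 genes kept their direction without IVP bull 1, and 1706 of them were still called.

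**Figure D1:**
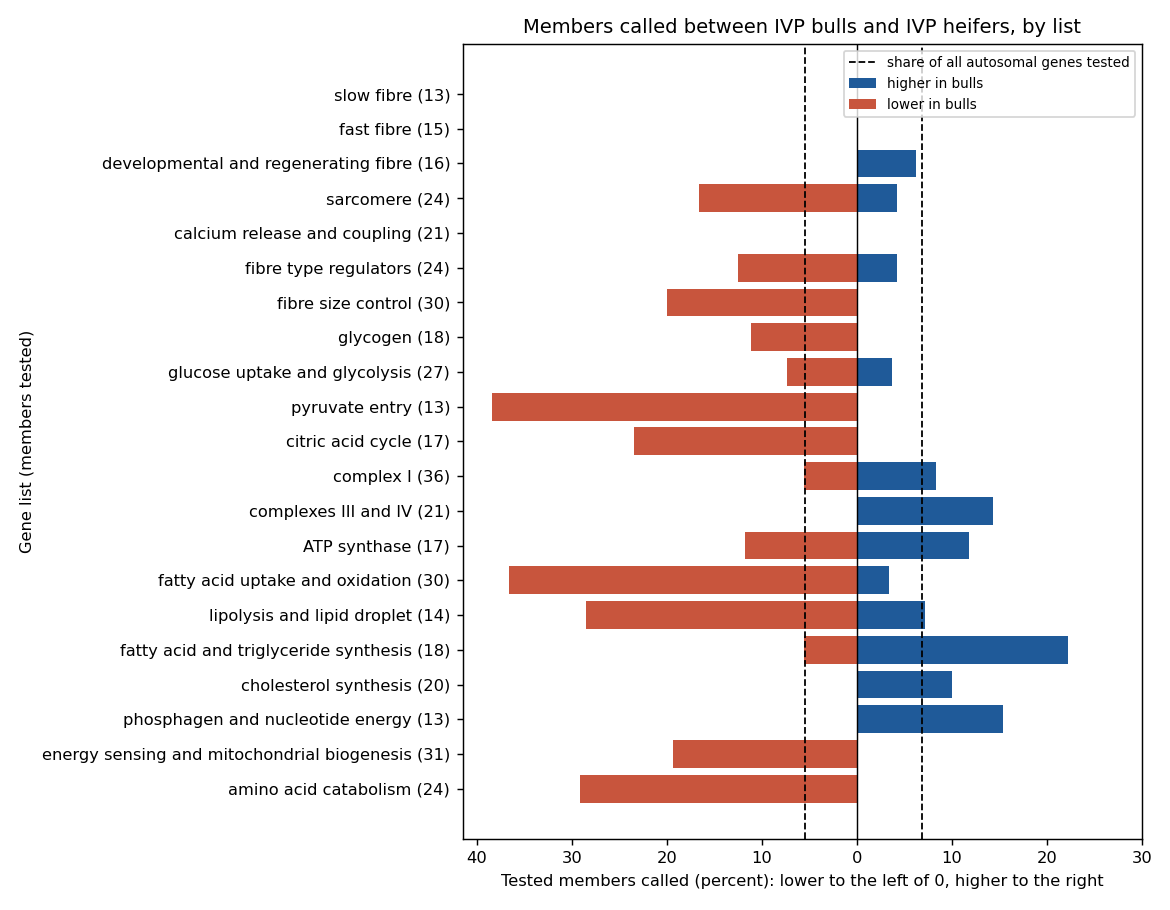
Share of the tested members of each of the 21 lists that were called lower (red, left of 0) or higher (blue, right of 0) in IVP bulls than in IVP heifers, in percent, with the number tested in brackets. Dashed lines mark the shares over all autosomal genes, 5.43% lower and 6.82% higher; bars for pyruvate entry, fatty acid oxidation, amino acid catabolism and lipolysis reach farthest to the left, and the slow fibre, fast fibre and calcium release lists have no bar.

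The contractile genes that define slow and fast fibres were not called in either direction, which does not show that their levels were equal. Of 13 slow fibre genes tested, none passed, although all 13 had differences below 0, with a median of -0.81 and a range from -1.36 to -0.13. Of 15 fast fibre genes, none passed, 9 lay below 0 and the median was -0.07. At an unadjusted p under 0.05 there were 2 lower and none higher in each of these lists. DESeq2 called none of the slow and 1 of the fast genes lower, and limma voom 1 of each. Without IVP bull 4 edgeR called 2 slow fibre genes lower, and that list's median was -1.26. Without heifer 1 or bull 3 it called none, 12 of 13 differences lay below 0, and the medians were -0.48 and -0.49.

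MYH7, the slow myosin heavy chain, stood at 2854, 2217, 881 and 6207 CPM in bulls 1 to 4 and at 7419, 4556, 3652 and 5619 CPM in heifers 1 to 4. Bulls 1 to 3 lay below every heifer and bull 4 lay above heifers 2 to 4, so the groups overlapped, and the difference of -0.81 ± 0.54 did not pass (adjusted p = 0.318). TNNC1, the troponin C of slow fibres, had the same order among the bulls, from 560 CPM in bull 3 to 2829 in bull 4 against 2105 to 3227 in heifers (-0.83 ± 0.43, adjusted p = 0.198). TNNT1, the slow troponin T, ran from 388 to 2520 CPM in bulls and from 1026 to 2275 in heifers, with an adjusted p of 0.596. Bull 4, the highest bull for these 3 genes, is also the library with the high mitochondrial share and was the youngest bull, at 117 days.

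Fast fibre genes gave a mixed picture. MYH1, a fast heavy chain, ran from 44492 to 83322 CPM in bulls and from 79852 to 100120 in heifers (-0.52 ± 0.24, adjusted p = 0.144). MYH2 ran from 1486 to 6714 CPM in bulls and from 5031 to 6252 in heifers (-0.57 ± 0.38, adjusted p = 0.322). The fast troponin T gene TNNT3 lay at 14278 to 25367 CPM in bulls and 12257 to 21396 in heifers, with a difference of 0.34 ± 0.24, and MYL11, the fast regulatory light chain, at 16431 to 27610 against 14931 to 19970, with a difference of 0.35 ± 0.20. Neither passed. As a share of the counts of MYH7, MYH2, MYH1 and MYH4 together, MYH7 held 1.87 to 9.39% in bulls and 3.61 to 7.92% in heifers, and MYH1 held 80.4 to 94.4% against 85.3 to 91.2%. These fast heavy chain genes are near copies of each other and the handling of reads that match several genes is not given in the sources used here, so their separate levels are uncertain.

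Among structural genes of the sarcomere, 4 of 24 were lower in bulls, 1 was higher and the median difference was -0.32. LMOD2, a leiomodin that lengthens actin filaments, stood at 189, 143, 134 and 196 CPM in bulls and at 356, 373, 391 and 511 CPM in heifers. Every bull lay below every heifer, and the difference of -1.30 ± 0.19 (2.46-fold lower, adjusted p = 0.00222) stayed called when any of the 8 libraries was left out. Its relative LMOD3 (-0.66 ± 0.17, adjusted p = 0.0243), the myosin-binding protein MYBPC1 (-0.75 ± 0.22, adjusted p = 0.0391) and the Z-disc protein MYOT (-0.78 ± 0.24, adjusted p = 0.0453) were lower as well. MYBPC1 ran from 3324 to 6289 CPM in bulls and from 7810 to 8429 in heifers without overlap, whereas for MYOT bull 1 at 2061 CPM lay above heifer 3 at 1968. OBSL1, which links the M-band to its surroundings, was higher in bulls, at 110 to 203 CPM against 92.5 to 104 (0.71 ± 0.18, adjusted p = 0.0249). The list's count of lower members ran from 1 without heifer 2, heifer 3 or bull 2 to 8 without bull 1. No member was higher without heifer 1, 2 or 3 or without bull 2 or 3.

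**Figure D2:**
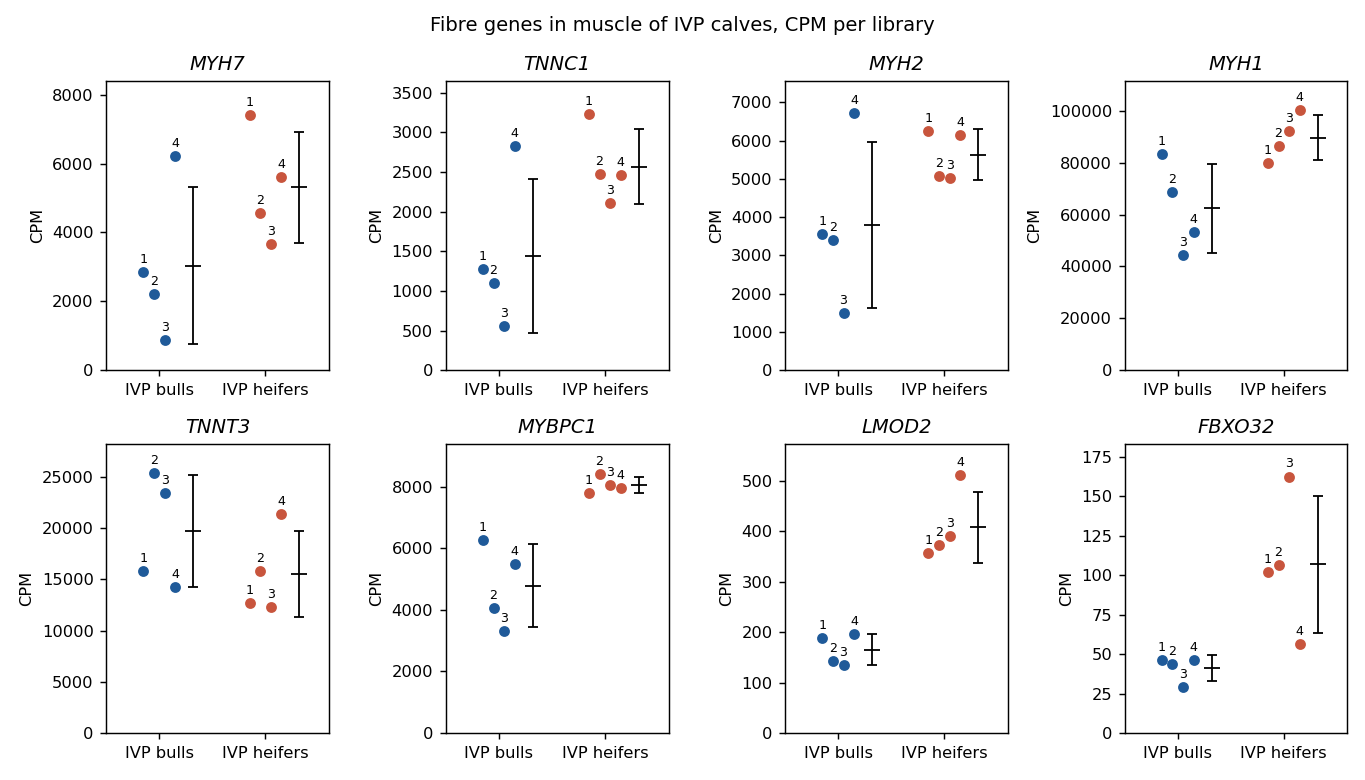
CPM of 8 fibre genes in each IVP muscle library, on linear axes from 0. Numbered points are calves 1 to 4 of each sex, and the bar beside them is the mean ± SD (n = 4). MYH7, TNNC1, MYH2, MYH1 and TNNT3 overlap between the sexes, bull 4 stands highest among the bulls for the first 3 of these, and MYBPC1, LMOD2 and FBXO32 do not overlap.

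Genes of calcium release and excitation coupling were not called either, with 0 of 21 in each direction by edgeR and a median of -0.16. At an unadjusted p under 0.05 there were 6 lower and 1 higher; DESeq2 called 5 lower and 1 higher, and limma voom 1 lower. RYR1, the calcium release channel, lay at 4040 to 5826 CPM in bulls and 5728 to 7424 in heifers (-0.39 ± 0.17, adjusted p = 0.125). SLN, sarcolipin, an inhibitor of the calcium pump, lay at 2262 to 3204 against 1807 to 2691 CPM (0.38 ± 0.20, adjusted p = 0.195), and CACNA1S, the voltage sensor, at 1079 to 1695 against 1253 to 1440 CPM, with a difference of 0.03. Without bull 1 the list had 5 members lower and 1 higher.

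The developmental and regenerating fibre list had 1 of 16 members called, higher in bulls, and none lower, also at an unadjusted p under 0.05, by DESeq2 or by limma voom. CDH15, the cadherin of satellite cells and young myotubes, stood at 46.8, 69.5, 64.8 and 47.5 CPM in bulls against 37.9, 35.7, 37.8 and 45.7 in heifers (0.54 ± 0.16, adjusted p = 0.0398). The lowest bull lay only just above the highest heifer, and CDH15 was called in 3 of the 8 fits without 1 IVP library. DESeq2 called 3 members of the list higher and limma voom 1. MYH3, the embryonic heavy chain, ran from 13.1 to 30.0 CPM in bulls and from 11.8 to 15.3 in heifers (0.48 ± 0.27, adjusted p = 0.246), and MYH8, the perinatal one, from 14.6 to 29.5 against 24.8 to 48.5 (-0.52 ± 0.26, adjusted p = 0.185). MYF6, a myogenic factor of mature fibres, differed by -0.44 and the acetylcholine receptor subunit CHRNA1 by -0.16, and neither passed.

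Regulators of fibre type had 3 of 24 members lower and 1 higher, with a median of -0.21. SIX4, a homeobox factor of the fast programme, was higher in bulls at 74.4, 111, 90.3 and 87.1 CPM against 59.3, 61.6, 55.0 and 47.2 in heifers (0.70 ± 0.13, adjusted p = 0.00684), with no overlap, and stayed called without any 1 of the 8 libraries. The calcineurin target NFATC3 (-1.19 ± 0.30), the myogenic cofactor VGLL2 (-1.11 ± 0.33) and MEF2D, a factor that drives muscle genes (-0.45 ± 0.13), were lower in bulls, with adjusted p from 0.0225 to 0.0417. For NFATC3 only bull 1, at 44.9 CPM, reached the level of a heifer, 44.4 CPM in heifer 4. The 3 lower calls were all lost without heifer 3, bull 2 or bull 3.

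Genes that set fibre size were lower or uncalled: 6 of 30 were lower in bulls (median -0.31) and none was higher by edgeR or limma voom, with 1 higher by DESeq2 and 1 at an unadjusted p under 0.05. IRS2, an insulin receptor substrate, stood at 20.6, 15.2, 19.0 and 27.0 CPM in bulls against 51.7, 49.5, 59.0 and 46.2 in heifers (-1.33 ± 0.25, adjusted p = 0.00731). IRS1, the other main substrate, ran from 27.3 to 47.1 against 51.7 to 89.2 CPM (-0.86 ± 0.20, adjusted p = 0.0168). FBXO32, the ubiquitin ligase atrogin-1 and a FOXO target, lay at 46.5, 43.5, 29.1 and 46.2 CPM in bulls and at 102, 106, 163 and 56.4 CPM in heifers (-1.37 ± 0.29, adjusted p = 0.0127). For these 3 genes the sexes did not overlap, although heifer 4 lay nearer to the bulls for FBXO32. PIK3R1, the regulatory subunit of PI3 kinase (-0.95), and the transcription factors FOXO1 (-1.10) and FOXO3 (-0.83) were lower with adjusted p from 0.0217 to 0.0358. The growth factor IGF1 (0.06 ± 0.30) and its opponent myostatin, MSTN (0.05 ± 0.45), did not pass, and both overlapped between the sexes. The count of lower members ran from 2 without heifer 3 or bull 3 to 9 without bull 1.

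The 7 genes taken as markers of skeletal muscle itself (ACTA1, CKM, MYH1, MYH2, MYH7, TTN and MB) summed to 114637 to 156874 CPM in bulls and 157378 to 202204 CPM in heifers. No heifer lay below a bull, yet edgeR called none of the 7, with 2 lower at an unadjusted p under 0.05, 1 lower by DESeq2 and none by limma voom. Their median difference was -0.52. Among heifers, heifer 4 was highest for this sum and for the summed sarcomere list, but lowest for the summed fibre size list. The part of muscle content in the sarcomere and fibre size differences was not tested.

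At the entry of pyruvate into mitochondria 5 of 13 genes were lower in bulls and none higher, with a median of -0.49. In this list and in the citric acid cycle, glycogen, energy sensing and amino acid lists, no gene was higher at an unadjusted p under 0.05, by DESeq2 or by limma voom either. PDK4, the kinase that shuts pyruvate dehydrogenase, stood at 48.2, 12.2, 104 and 14.4 CPM in bulls and at 635, 647, 635 and 429 CPM in heifers. The lowest heifer was at 429 CPM and the highest bull at 104, so the groups lay far apart. The means were 44.6 ± 42.6 (SD, n = 4) and 586 ± 105 (SD, n = 4), and the difference of -3.72 ± 0.80 (13.2-fold lower, adjusted p = 0.0150) was called without any 1 of the 8 libraries. PDK2, another kinase of the complex, was lower by a smaller amount (-0.58 ± 0.13, adjusted p = 0.0152), and so were PDPR, a regulator of the opposing phosphatase (-0.50 ± 0.13), and the structural parts PDHX (-0.60 ± 0.15) and DLD (-0.97 ± 0.29). The called members thus included kinases that close the complex as well as parts of the complex itself. Between 1 gene (without heifer 3) and 7 genes (without bull 1) of this list were lower when 1 library was left out.

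Fatty acid uptake and oxidation held the largest number of lower genes of the 21 lists, 11 of 30, or 36.7% against 5.43% over all autosomal genes, with 1 higher and a median of -0.46. UCP3, a mitochondrial carrier of muscle that rises when fatty acids are burnt, stood at 160, 168, 326 and 160 CPM in bulls and at 761, 1029, 552 and 333 CPM in heifers (-1.72 ± 0.35, 3.29-fold lower, adjusted p = 0.0105). Bull 3 and heifer 4 nearly met, at 326 and 333 CPM. Genes of the carnitine shuttle were among them. CPT1B, the muscle form of the outer membrane enzyme, lay at 39.4, 39.4, 65.1 and 63.1 CPM in bulls against 86.8, 95.2, 109 and 84.0 in heifers (-0.86 ± 0.22, adjusted p = 0.0256). SLC25A20, the carrier of acylcarnitines, lay at 30.4 to 43.8 against 56.3 to 61.8 CPM (-0.68 ± 0.14, adjusted p = 0.00918). CRAT, which moves short acyl groups to and from carnitine, ran from 100 to 185 against 174 to 227 CPM (-0.76 ± 0.18, adjusted p = 0.0181), with bull 1 alone inside the heifer range.

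Inside the mitochondrion the same direction was seen in beta-oxidation. HADHA, the trifunctional enzyme subunit, stood at 81.1, 52.8, 65.8 and 81.3 CPM in bulls and at 145, 134, 130 and 125 CPM in heifers. All bulls lay well below all heifers (-0.92 ± 0.17, adjusted p = 0.00698). ETFDH, which passes the electrons of beta-oxidation to the respiratory chain, stood at 30.8, 22.3, 28.4 and 37.7 CPM against 58.2, 65.0, 61.9 and 60.2, a 2.06-fold lower level in bulls (-1.04 ± 0.18, adjusted p = 0.00496). ACSL1, which activates long-chain fatty acids, was lower by 0.52 on the log2 scale, at 97.6 to 130 CPM in bulls against 141 to 170 in heifers. The other 5 called genes of this list were named after their values were seen. They were CPT1A (-1.36), MLYCD, which removes the CPT1 inhibitor malonyl-CoA (-1.52), ACADS (-0.59) and ACAA2 (-0.41), all lower, and the fatty acid transporter SLC27A4, higher by 0.92. CPT1A stood at 6.74, 5.08, 15.9 and 6.87 CPM in bulls and 24.2, 21.7, 22.4 and 20.7 in heifers. ETFDH, HADHA, SLC25A20 and UCP3 were called without any 1 of the 8 libraries, while the list's count of lower genes ran from 4 without bull 2 to 14 without bull 1 or without bull 4.

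**Figure D3:**
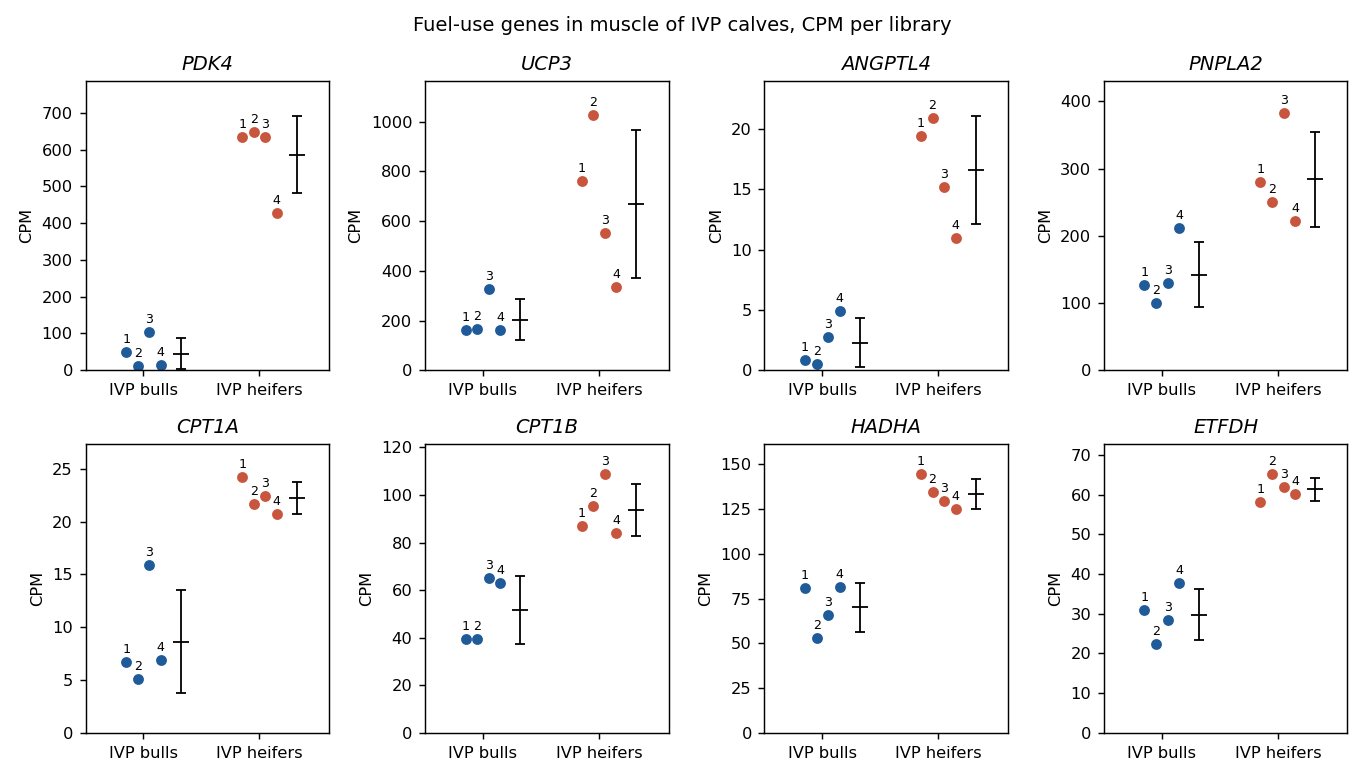
CPM of 8 genes of fuel use in each IVP muscle library, on linear axes from 0, with calves numbered 1 to 4 and the mean ± SD (n = 4) beside them. In each panel all 4 bulls lie below all 4 heifers; the gap is widest in PDK4, with 104 CPM in the highest bull and 429 CPM in the lowest heifer, and narrowest in UCP3 and PNPLA2.

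In the list of lipolysis and lipid droplet genes 4 of 14 were lower, 1 was higher and the median was -0.62. The count of lower genes was 1 without heifer 3, bull 2 or bull 3 and 6 without bull 4. ANGPTL4, a secreted inhibitor of lipoprotein lipase, stood at 0.883, 0.497, 2.77 and 4.92 CPM in bulls and at 19.4, 20.9, 15.2 and 11.0 CPM in heifers. The groups did not overlap, and the difference was -2.87 ± 0.75 (7.31-fold lower, adjusted p = 0.0290), but it was called in only 3 of the 8 fits without 1 library. PNPLA2, the lipase that opens triglyceride breakdown, ran from 99.4 to 212 CPM in bulls and from 222 to 383 in heifers (2-fold lower, adjusted p = 0.0236). The next lipase, LIPE, was lower by 0.71 on the log2 scale with an adjusted p of 0.0496. FITM2, which helps lipid droplets to form, lay at 5.93 to 7.87 against 11.3 to 14.7 CPM (-0.91 ± 0.15, adjusted p = 0.00391). CIDEA, a droplet protein, was the 1 higher, at 2.03 to 4.57 against 1.58 to 2.08 CPM, so the sexes overlapped at a low level. No gene of this list was higher by limma voom or with only the 8 IVP libraries. The same held without any 1 of the IVP or AI heifers and without bull 2 or 3. Lipoprotein lipase itself, LPL, lay at 22.8 to 67.8 against 59.0 to 97.4 CPM and did not pass (-0.72 ± 0.42, adjusted p = 0.256). The 5 adipocyte markers summed to 4.94 to 7.75 CPM in bulls and 5.08 to 7.88 in heifers, with LEP listed at 0 throughout. None of the 3 tested was called by edgeR, DESeq2 or limma voom, and 1 was higher at an unadjusted p under 0.05.

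Of 18 genes of fatty acid and triglyceride synthesis tested, 4 were higher in bulls (22.2% against 6.82% over all genes), 1 was lower and the median was 0.23. DESeq2 called 4 higher and 3 lower, limma voom 4 and 2, edgeR with only the 8 IVP libraries 3 and 3, and edgeR without 1 IVP library 2 to 4 higher. The summed level of the list lay at 425 to 487 CPM in bulls and 481 to 595 CPM in heifers. MLXIPL, a carbohydrate-responsive transcription factor, stood at 4.12, 7.88, 5.99 and 6.72 CPM in bulls against 3.54, 2.71, 2.13 and 2.20 in heifers (1.22 ± 0.22, adjusted p = 0.00684). FASN, fatty acid synthase, stood at 26.2, 19.9, 21.9 and 24.4 CPM against 15.8, 13.1, 14.9 and 11.1 (0.75 ± 0.16, adjusted p = 0.0127). Neither gene overlapped between the sexes, and both were called without any 1 of the 8 libraries. DGAT1, which completes triglycerides (0.66 ± 0.17), and the elongase ELOVL1 (0.49 ± 0.13) were also higher, while the desaturase SCD was lower, at 8.98 to 16.1 against 19.8 to 27.0 CPM (-0.80 ± 0.21, adjusted p = 0.0249). In cholesterol synthesis and uptake 2 of 20 genes were higher and none lower, with 4 lower at an unadjusted p under 0.05, 1 by DESeq2 and none by limma voom. None was higher without heifer 1, 2 or 3 or without bull 3, and 4 were higher without heifer 4. The epoxidase SQLE was higher, at 2.27 to 4.60 against 1.07 to 1.78 CPM (1.19 ± 0.31, adjusted p = 0.0247).

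In glucose uptake and glycolysis 2 of 27 genes were lower (7.41%) and 1 higher, with a median of -0.12. The share lower is near that over all genes. None was lower without heifer 1, 2 or 3 or without bull 2 or 3, and DESeq2 called 6 lower. None was higher without heifer 1, 2 or 3 or without bull 2 or 4. HK2, the insulin-responsive hexokinase of muscle, stood at 134, 73.6, 56.8 and 52.5 CPM in bulls and at 191, 172, 176 and 155 CPM in heifers (-1.13 ± 0.30, adjusted p = 0.0259). PFKFB3, which makes the activator of phosphofructokinase, ran from 167 to 558 against 831 to 1305 CPM (-1.35 ± 0.43, adjusted p = 0.0496), with bull 4 far below the other bulls. TBC1D4, which holds glucose transporters inside the cell, was higher in bulls, at 243 to 299 against 193 to 220 CPM (0.48 ± 0.13, adjusted p = 0.0283). The transporter gene SLC2A4 lay at 66.5 to 135 against 127 to 145 CPM and did not pass (-0.48 ± 0.29, adjusted p = 0.275). Among 18 glycogen genes, UGP2, which makes the glucose donor for glycogen (-0.93 ± 0.27, adjusted p = 0.0379), and STBD1, a glycogen-binding protein (-0.69 ± 0.22, adjusted p = 0.0496), were lower. The list's median was -0.40, with 16 of 18 differences below 0. Its count of lower genes was 9 without bull 1, 0 without any other 1 of the IVP libraries and 0 without AI heifer 2.

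In the citric acid cycle 4 of 17 genes were lower in bulls, none was higher, and all 17 differences lay below 0, from -1.05 to -0.22 with a median of -0.44. OGDH, the first part of the 2-oxoglutarate dehydrogenase complex, stood at 54.6, 26.2, 21.9 and 31.7 CPM in bulls and at 64.8, 78.4, 78.3 and 57.2 CPM in heifers (-1.05 ± 0.29, adjusted p = 0.0304). Every bull lay below every heifer, with bull 1 close to heifer 4. DLST (-0.66 ± 0.19, adjusted p = 0.0333), the second part of that complex, and SDHA, the catalytic part of succinate dehydrogenase (-0.62 ± 0.19, adjusted p = 0.0418), were lower. For DLST bull 1, at 86.6 CPM, lay above heifer 4, at 81.6 CPM, while the other bulls lay at 46.2 to 52.6 CPM. Without bull 2 no gene of this list was called, and without bull 1 there were 5.

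Of the respiratory chain, complex I had 3 members higher (8.33%) and 2 lower (5.56%) of 36, with a median of 0.00. Both shares are near those over all autosomal genes, 6.82% and 5.43%. Complexes III and IV had 3 higher (14.3%) and none lower of 21. Their median was -0.02, with 2 lower by DESeq2 and at an unadjusted p under 0.05, and 1 by limma voom. ATP synthase had 2 higher and 2 lower of 17 (11.8% each, median -0.09). COX6A2, the heart and muscle form of a cytochrome oxidase subunit, stood at 209, 351, 308 and 369 CPM in bulls and at 166, 190, 144 and 201 CPM in heifers (0.82 ± 0.17, adjusted p = 0.00999), with no overlap, and stayed called without any 1 of the 8 libraries. COX6A1, the form of other tissues (0.78 ± 0.19), and COX8A (0.60 ± 0.16) went the same way, as did NDUFB7, NDUFA7 and NDUFB1 of complex I (each 0.47) and ATP5MF (0.47) and ATP5ME (0.44) of ATP synthase. Among the lower members were NDUFV3 of complex I, at 37.9 to 53.5 against 59.6 to 72.2 CPM (-0.47 ± 0.13), and the catalytic ATP synthase subunits ATP5F1A (-0.68 ± 0.19) and ATP5F1B (-1.54 ± 0.36). ATP5F1B is uncertain, since it shares sequence with copies elsewhere in the genome. When 1 IVP library was left out, complex I had 0 to 4 members higher and 0 to 3 lower, and ATP synthase 0 to 2 higher and 0 to 3 lower. In both lists none was higher by edgeR in 6 of these 8 fits, the exceptions being those without heifer 4 or bull 1. Without AI heifer 2 none was higher in either list. Complexes III and IV had 1 to 3 higher and 0 to 1 lower.

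**Figure D4:**
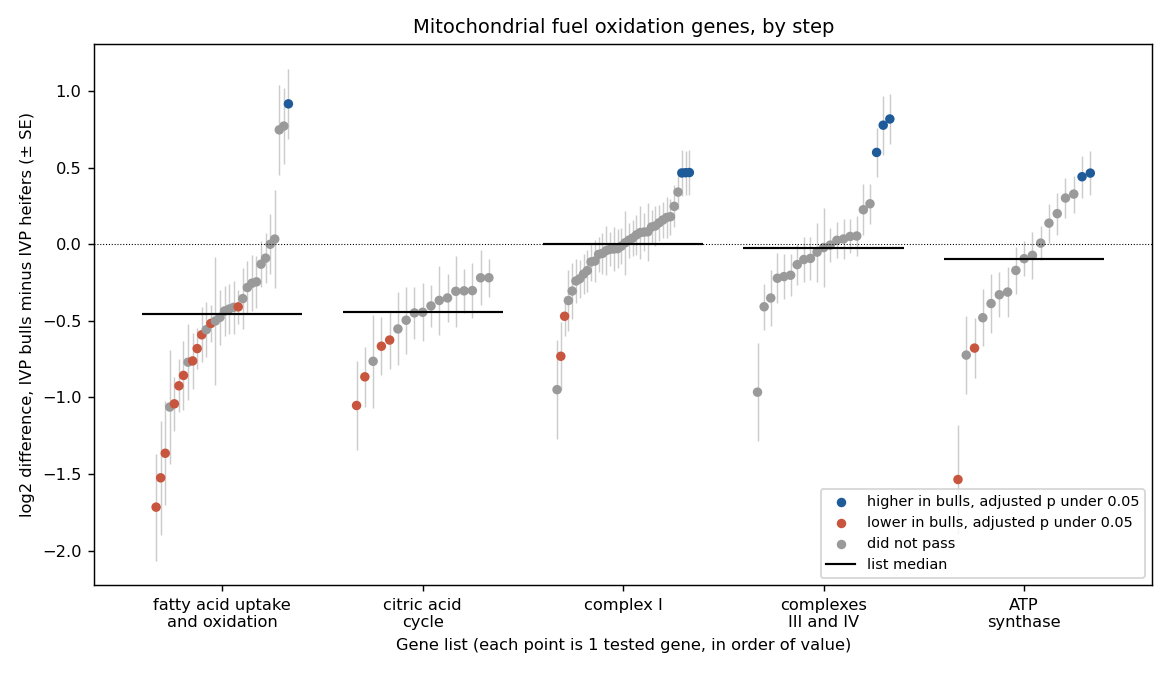
Log2 difference ± SE of every tested member of 5 lists, IVP bulls minus IVP heifers, in order of value within each list; the black line is the list median. Fatty acid oxidation and citric acid cycle genes lie mostly or wholly below 0 with medians of -0.46 and -0.44, while the respiratory lists are centred near 0 with called genes (blue higher, red lower) at their ends.

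Energy sensing and mitochondrial biogenesis genes had 6 of 31 members lower in bulls (19.4%) and none higher, with a median of -0.22. The NR4A receptors, orphan nuclear receptors rapidly induced by contraction and adrenergic signals, had the largest differences. NR4A3 stood at 0.241, 0.314, 0.250 and 0.154 CPM in bulls and at 3.62, 1.05, 2.10 and 6.68 CPM in heifers (-3.79 ± 0.50, 13.9-fold lower, adjusted p = 0.00138). NR4A2 ran from 2.08 to 6.21 against 6.28 to 30.3 CPM (-1.99 ± 0.42, adjusted p = 0.0127), and NR4A1 from 69.3 to 195 against 217 to 676 CPM (-1.40 ± 0.39, adjusted p = 0.0326). Heifer 4 was highest for all 3 and heifer 2 the lowest of the heifers. PERM1, which supports mitochondrial gene expression in muscle (-0.71 ± 0.15, adjusted p = 0.0123), PRKAB2, the muscle beta subunit of AMP kinase (-1.09 ± 0.28, adjusted p = 0.0253), and PPARD (-0.81 ± 0.23, adjusted p = 0.0356) were lower as well. PPARGC1A, the coactivator that heads this programme, lay at 4.46 to 13.9 CPM in bulls and 7.37 to 15.6 in heifers and did not pass (-0.19 ± 0.35, adjusted p = 0.738). The count of lower members ran from 3 without heifer 3 or bull 3 to 8 without bull 1.

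Amino acid catabolism had 7 of 24 members lower in bulls (29.2%), none higher and a median of -0.40. ACADSB, an acyl-CoA dehydrogenase of isoleucine breakdown, stood at 60.7, 38.9, 31.8 and 39.9 CPM in bulls against 82.9, 88.5, 81.9 and 70.4 in heifers (-0.92 ± 0.18, adjusted p = 0.00889). PCCB (-0.99 ± 0.21, adjusted p = 0.0127) and MMUT (-0.98 ± 0.24, adjusted p = 0.0183), which carry propionyl-CoA into the citric acid cycle, were lower without overlap. GLUL, glutamine synthetase, ran from 234 to 435 against 591 to 991 CPM (-1.28 ± 0.35, adjusted p = 0.0283), and GLUD1, glutamate dehydrogenase, and BCKDK, the kinase that restrains branched-chain breakdown, were lower by 1.01 and 0.54 on the log2 scale. GOT1, a transaminase named after its values were seen, was the seventh (-0.64). Without bull 2 the count was 2, and without bull 1 it was 10. In the phosphagen list, GATM, the first enzyme of creatine synthesis, at 19.0 to 35.9 against 10.7 to 17.5 CPM (1.05 ± 0.26, adjusted p = 0.0199), and ADSL of the purine cycle, at 192 to 292 against 116 to 152 CPM (0.85 ± 0.19, adjusted p = 0.0133), were higher, 2 of 13. None was lower by edgeR or limma voom, with 1 lower by DESeq2 and 2 at an unadjusted p under 0.05.

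The autosomal genes with the smallest adjusted p were mostly outside these lists, which hold only 442 of the 14450 genes tested. Higher in bulls were TDRD9, a helicase best known from the germ line, at 3.02, 2.62, 2.19 and 3.42 CPM in bulls against 0 to 0.160 in heifers (4.84 ± 0.44, adjusted p = 4.62e-05), and the homeobox gene HOXA9, at 30.5 to 53.3 against 15.4 to 17.2 CPM (1.36 ± 0.16, adjusted p = 0.000619). The fibrillar collagen gene COL27A1 (1.29), SPEGNB (1.28), the splicing genes CENATAC (1.22) and SRSF11 (0.79), the Notch ligand JAG1 (1.22), the helicase gene DDX11 (2.12-fold), CAMK2N1, an inhibitor of CaM kinase II (1.03), and the inositol phosphatase INPP5B (0.97) followed. Lower in bulls were ARID5B, a chromatin factor, at 19.5 to 30.2 against 97.6 to 157 CPM (-2.57 ± 0.34, 5.93-fold lower, adjusted p = 0.00138), and the adiponectin receptor ADIPOR2, at 67.2 to 80.6 against 134 to 152 CPM (-0.98 ± 0.13, adjusted p = 0.00138). The mitochondrial nucleotide carrier SLC25A33 (-1.88), the cadherin CDH22 (-1.46), the pseudokinase TRIB1 (-1.40), the inositol phosphate kinase IP6K3 (-1.26), the muscle ubiquitin ligase subunit FBXO40 (-1.19) and LOC104968476 (-0.89) were also lower, beside NR4A3 and LMOD2. All 20 were without overlap and were called without any 1 of the 8 libraries. They were picked by adjusted p from the same libraries, which favours both traits, so neither is separate support.

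None of the endothelial (5 tested), fibroblast and matrix (6), macrophage (6), T and NK cell (5) or red cell (1) markers was called by edgeR, DESeq2 or limma voom, and 1 macrophage marker alone was lower at an unadjusted p under 0.05. Median differences were -0.05 for endothelial, 0.24 for fibroblast, 0.21 for macrophage and 0.18 for T and NK cell markers, 0.25 for smooth muscle, 0.54 for satellite cell, 0.84 for adipocyte and -0.28 for Schwann cell markers, and 0.98 for the 1 red cell marker. Of the smooth muscle and pericyte markers 2 of 6 were higher in bulls, TAGLN at 22.6 to 37.9 against 11.9 to 17.9 CPM (1.02 ± 0.19, adjusted p = 0.00684) and ACTA2 at 19.3 to 38.0 against 11.0 to 16.5 CPM (1.01 ± 0.23, adjusted p = 0.0154). The list summed to 132 to 189 CPM in bulls and 110 to 147 in heifers. Of the Schwann cell markers PMP22 was lower in bulls (-0.75 ± 0.20, adjusted p = 0.0267), and the list summed to 90.4 to 126 against 113 to 163 CPM. The satellite cell markers summed to 50.4 to 73.2 against 38.4 to 50.5 CPM, of which CDH15 was called. Macrophage markers summed to 14.9 to 44.8 against 25.9 to 62.0 CPM, and fibroblast markers to 575 to 1626 against 622 to 1251 CPM. The part of these cell types in the results was not tested.

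The same contrast in muscle of AI calves called 1414 of 14450 autosomal genes (9.79%). The count was 744, 500 and 482 without AI heifer 1, 2 or 4, and 870 and 909 without AI bull 3 or 4. Of the genes called in IVP calves 238 were called in AI calves in the same direction, which is 13.4% of the IVP calls and 16.8% of the AI calls, and 30 in the opposite direction. PDK4 (-2.57, adjusted p = 0.0483) and UCP3 (-1.44, adjusted p = 0.0170) were lower in AI bulls too, as were FBXO32 (-1.997), IRS2 (-1.29), GLUL (-1.50), ARID5B (-1.93) and ADIPOR2 (-0.66). For these 7 genes the difference between the IVP and AI contrasts did not pass. In contrast, AI medians of the lists lay near or above 0 where the IVP medians were lowest. In AI calves the fatty acid oxidation list had a median of -0.04, with 1 of 30 lower. The citric acid cycle had 0.15 with 1 of 17 higher, and amino acid catabolism -0.03 with 1 of 24 lower. The slow fibre list had 0.66 with 1 of 13 in each direction. The test of the difference between the IVP and AI contrasts called none of the 13 slow fibre, 13 pyruvate entry, 14 lipolysis or 24 amino acid genes. It called 1 of 17 citric acid cycle genes, with IVP minus AI below 0. These medians alone thus do not show that the lists differ between the kinds of calf. The fibre size list had a median below 0 in both kinds of calf. It had 6 of 30 lower and 2 higher in AI bulls, and its median was -0.26 against -0.31 in IVP calves. The test of the difference called 1 of its 30 genes in each direction. The fast fibre list had 6 of 15 higher in AI bulls, and the calcium release list 7 of 21 higher and 1 lower. Over all autosomal genes 720 of 14450 were higher and 694 lower in AI bulls.

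A test of the difference itself called 396 of 14450 genes (2.74%), of which 177 were also called in IVP calves. The count rested on single libraries, with 56 genes without AI heifer 2, 121 without AI heifer 4, 145 without AI bull 1, 139 without IVP heifer 4, 146 without IVP bull 3 and 975 without IVP bull 1. It was 173 to 225 without any 1 of the other AI or IVP heifers or without IVP bull 2. In the fatty acid oxidation list it passed for HADHA alone of 30, which stood at 126 ± 29.8 CPM (SD, n = 4) in AI bulls and 116 ± 14.0 CPM (SD, n = 3) in AI heifers (IVP minus AI -1.04 ± 0.24, adjusted p = 0.0339). It passed for 4 of the 31 energy sensing genes, NR4A1, NR4A2, NR4A3 and PERM1. NR4A1 was lower in IVP bulls but higher in AI bulls, at 277 ± 113 against 93.0 ± 29.1 CPM in AI heifers (AI difference 1.59, adjusted p = 0.0200), and NR4A2 likewise (AI difference 1.39, adjusted p = 0.0475). STBD1 was lower in IVP bulls and higher in AI bulls, at 274 ± 64.3 against 101 ± 32.3 CPM (difference of differences -2.13 ± 0.31, adjusted p = 0.00899). FASN was higher in IVP bulls with no called difference in AI calves (-0.34), and the 2 contrasts differed by 1.10 ± 0.23 (adjusted p = 0.0236). The leading genes in this test were the mitochondrial iron importer SLC25A37 (1.70) and WDR45B (1.13), higher in IVP bulls and lower in AI bulls, and the phosphatase PGP (-1.48) and IGFBP5, an IGF binding protein (-2.38). The latter was not called in IVP calves, at 177 to 362 against 246 to 411 CPM, and was higher in AI bulls (2.04). The age ranges of the AI and IVP groups were close, but AI bull 1 and IVP bull 1 deviate together, and without both libraries the test called 546 genes.

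**Figure D5:**
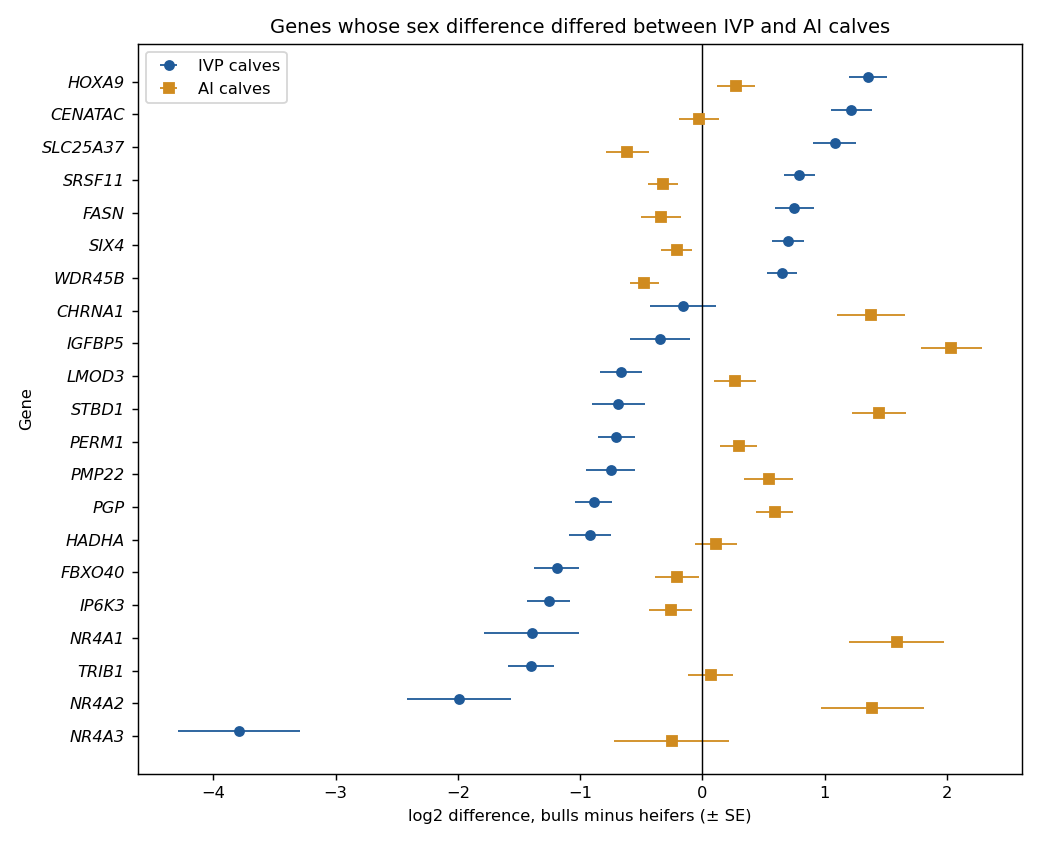
Log2 difference ± SE, bulls minus heifers, in IVP calves (blue circles) and AI calves (orange squares) for the 21 named genes in which the difference between the contrasts passed. NR4A3, NR4A2, TRIB1 and NR4A1 lie farthest to the left in IVP calves, and HOXA9, NR4A3, IP6K3 and FBXO40 have the same sign in both kinds of calf, the other genes opposite signs.

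Liver of the IVP calves, taken as the same animals by sex, number and age, was compared in the same way, and 1712 of 15799 autosomal genes were called (10.8%). Genes called in both tissues numbered 276, and 247 of them had the same direction, 158 higher and 89 lower in bulls. The 247 are 13.9% of the muscle calls, of which 1698 of 1771 were tested in liver, and 14.4% of the liver calls. Over all autosomal genes tested in liver, 895 of 15799 were higher and 817 lower in bulls. Of the 11 fatty acid oxidation genes lower in muscle 10 were tested in liver, and 7 were lower there too, namely CPT1A (-0.63), CPT1B (-0.71), SLC25A20 (-0.38), CRAT (-0.43), HADHA (-0.31), ETFDH (-0.40) and MLYCD (-0.48). In liver 10 of the 29 genes tested from this list were lower, against 817 of 15799 over all autosomal genes. ANGPTL4 (-1.04, adjusted p = 0.00624), OGDH (-0.52), DLD (-0.32) and MMUT (-0.38) were lower, and FASN (1.96, adjusted p = 0.0343), ELOVL1 (0.30) and SQLE (1.08) higher, in both tissues. PDK4 did not pass in liver (-0.17, adjusted p = 0.708), nor did FBXO32, IRS2, NR4A3 or FOXO1. Liver libraries carried a caution of their own, since IVP bull 2 lay at 0.0539 times counting noise from its group, against 2.18 to 6.69 times in the other 7, and 784 genes were called without it.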

How the data were processed

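Poly(A) RNA was sequenced from muscle and liver of 16 calves. The submitters' processing notes list Subread 2.0.3 (featureCounts), STAR 2.7.0b, FastQC 0.11.9 and Trimmomatic; strand and multi-match settings, annotation and build are not given in sources used here. The authors deposited unscaled estimated counts by Entrez number. The test had been planned for raw counts; every value was whole, so rounding changed nothing. Symbols and chromosomes came from a RefSeq table (ARS-UCD2.0) that matched 31630 of 35092 genes; the unmatched held 0.733% of muscle counts and stayed in the fit.

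The 16 muscle libraries were fitted as 4 groups with edgeR 4.0.16 (limma 3.58.1, R 4.3.3): filterByExpr, TMM scaling, robust quasi-likelihood test, Benjamini-Hochberg adjustment over all 15682 genes tested. The script was tested on simulated data, where it recovered 48% of genes changed by 1 on the log2 scale and 86% of those changed by 2. Genes that were not called may therefore differ. Alternatives used DESeq2 1.42.0, limma voom, other filters and scaling, age, a replicate block and single libraries left out. Named genes are, per direction, the 10 called with the smallest adjusted p and a mean of at least 1 CPM; per list, up to 6 called members, or the 3 most abundant where under 2 were called; 12 always named; and 2 per direction most unlike AI calves. Members and lists were chosen with earlier results of these data known. Some items are not reported here.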

Additional observations from a re-analysis of the deposited data

Results flagged for a closer look

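In 13 of 236 groups of 4 libraries examined, 1 library lay apart from its group by Dixon's criterion at the 95% level; chance gives about 5%. IVP bull 4 held 14.3% mitochondrial counts. Among bulls, bull 1 lay apart for SPEGNB (90.5 CPM, low), DLST (86.6 CPM, high), NDUFA7 (74.5 CPM, low) and CRAT (185 CPM, high), bull 3 for UCP3 (326 CPM, high) and bull 4 for SLN (2262 CPM, low). Among heifers, heifer 4 lay apart for PDK4 (429 CPM, low), SLC2A4 (127 CPM, low), PMP22 (82.3 CPM, high) and MYH8 (48.5 CPM, high), heifer 2 for ARID5B (97.6 CPM, low) and heifer 3 for TBC1D4 (220 CPM, high).

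For 21 named genes the difference between bulls and heifers itself differed between IVP and AI calves, by edgeR's quasi-likelihood test of the interaction. On the log2 scale, IVP minus AI, the positive values were 1.70 for SLC25A37, 1.25 for CENATAC, 1.13 for WDR45B, 1.11 for SRSF11, 1.10 for FASN, 1.081 for HOXA9 and 0.91 for SIX4. The negative values were -3.54 for NR4A3, -3.38 for NR4A2, -2.99 for NR4A1, -2.38 for IGFBP5, -2.13 for STBD1, -1.54 for CHRNA1, -1.48 for PGP, -1.47 for TRIB1, -1.29 for PMP22, -1.04 for HADHA, -1.003 for PERM1, -0.9996 for IP6K3, -0.98 for FBXO40 and -0.93 for LMOD3. IGFBP5 and CHRNA1 were not called in IVP calves.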

How the results depend on the processing

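The count of 1771 autosomal calls between IVP bulls and heifers was 2697 with DESeq2, 1059 with only the 8 IVP libraries and 507 to 2939 with 1 library left out; by limma voom it was 1646. Choices made after seeing the data gave 3442 (without IVP bull 1 and AI bull 1) and 2678 (only IVP libraries other than IVP bull 1). The AI count of 1414 was 2146 with DESeq2 and 482 to 1628 with 1 library left out. The count of 396 differences between IVP and AI was 1117 with DESeq2, 248 with no filter on low counts and 56 to 975 with 1 library left out. The liver count of 1712 was 784 to 1715. With the replicate number as a block the counts were 818, 791 and 115 in IVP, AI and the difference. The number follows age at biopsy from oldest to youngest within each group, with AI bulls 1 and 2 of equal age, and age as a covariate gave 1828 IVP calls. Same-numbered IVP males and females correlated by -0.07, -0.16, 0.21 and 0.04, and 1 of 4 males matched its own number best. Of the 99 called genes that the naming rule chose, 71 were called with the block and 80 with only the 8 IVP libraries. DESeq2 called 99 of them and limma voom 95. With 1 IVP library left out 47 (without heifer 3) to 97 (without bull 1) were called, and without AI heifer 2 it was 78. None of the 99 changed direction under any setting tried. The cause of these changes was not tested.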
